A study of Callorhinchus milii with 12 samples.

Results

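Partially methylated stretches of the elephant shark (Callorhinchus milii) liver genome were described here as windows of 50 kb. The CG methylation calls of a female and a male liver were added, adjoining windows were counted from position 1 of each scaffold of assembly 6.1.3, and the level of a window was the share of its CG calls that were methylated. A window became a member at a level of 20% to under 50% with at least 500 calls. Scaffolds with an overall level under 20% were left out. This gave 1449 member windows of 17445 windows on 325 scaffolds, or 8.31%, and the other 15996 windows serve as the comparison. The members were chosen by their measured level, so their low level, and the lower levels of the sites, reads and shorter windows inside them, are described and not tested.

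CG methylation is the addition of a methyl group to the cytosine of a CG dinucleotide, and in vertebrate somatic tissue most CG dinucleotides carry it. Partially methylated domains are long stretches of a genome in which methylation is intermediate instead of high. In mammals, where they are best known, they tend to be gene-poor, to replicate late in S phase and to lie at the nuclear periphery, and within them a CG with no other CG close by usually loses methylation first. Unmethylated CG islands and broader unmethylated valleys are a different kind of low region, short and often CG-rich, and they commonly lie at promoters and developmental genes.

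The study profiled DNA methylation in tissues of adult elephant sharks, a cartilaginous fish, taken from recently dead animals supplied by commercial fishermen. The members rest on the first liver of each sex, sequenced deeply as 1 library each by whole-genome bisulfite sequencing with post-bisulfite adapter tagging, in which adapters are added after bisulfite has converted unmethylated cytosines. The animals were untreated as far as the labels state, and the other 10 libraries of the series, sequenced at low coverage, were not used here. Liver is a mixture of cell types, so a window that is partly methylated in every cell and a window that is methylated in only some cells cannot be told apart from its level alone. No expression values were used, so the tissue label was not checked against marker genes.

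The female library held 30080951 CG calls and the male library 38128530, all on 1 flow cell with the same 2 lanes. Of the 330 scaffolds with calls, 5 were left out, with overall levels of 1.70% to 15.2% and 40 windows in all, while the lowest kept scaffold was at 41.2%. A further 51 windows had fewer than 500 calls, 9 of them at 20% to under 50%. With 1 library per sex there is no replicate check of any value here. The 95% intervals given below are over windows, taken as separate draws. Adjoining windows are not independent, so the intervals are narrower than they should be, and they hold nothing of the spread between animals.

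The members covered 71918 kb, which is 8.31% of the length of all tested windows, with 6.71% of the calls. Their pooled level was 42.5%, against 72.9% in the other windows. Most members lay close under the upper limit. At 45% to under 50% there were 690 members, or 47.6%, at 40% to under 45% there were 383, and at 35% to under 40% there were 190. Lower down, 90 members fell between 30% and 35%, 58 between 25% and 30%, and 38 between 20% and 25%. The distribution has no gap at either limit. The members closest under the upper limit were NW_006890070.1:9750001-9800000, NW_006890063.1:3650001-3700000 and NW_006890114.1:300001-350000, at 49.99%, 49.99% and 49.97%. Just outside it were NW_006890077.1:6950001-7000000 and NW_006890182.1:1900001-1950000, both at 50.0%, and NW_006890254.1:200001-250000 at 50.02%. At the lower limit, the members NW_006890082.1:2250001-2300000, NW_006890067.1:5050001-5100000 and NW_006890289.1:550001-568474 had 20.1%, 20.3% and 20.6%. The windows NW_006890079.1:5550001-5600000, NW_006890060.1:4650001-4700000 and NW_006890081.1:5650001-5700000 stayed outside it at 19.9%, 19.7% and 19.7%.

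**Figure D1:**
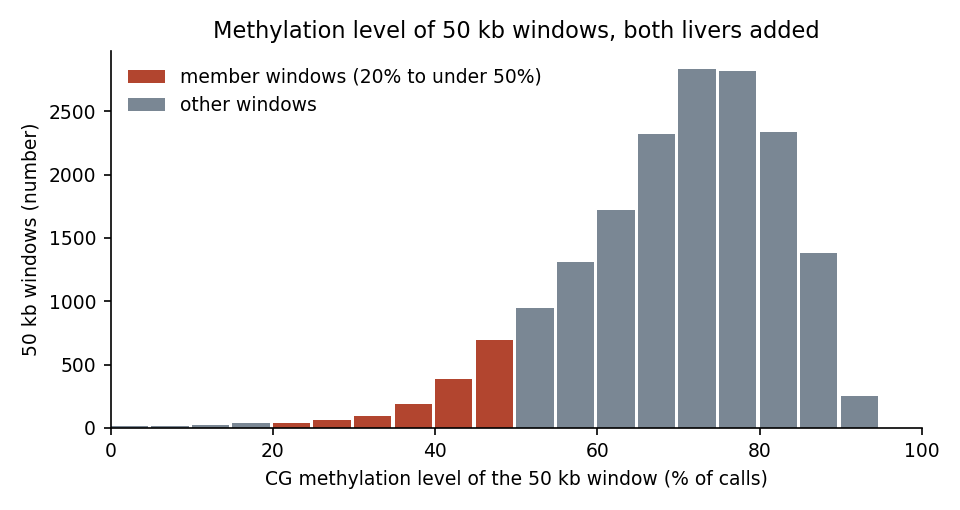
Number of 50 kb windows (vertical axis) by CG methylation level of the window in percent of calls, both livers added (horizontal axis, bins of 5 points). Member windows are red and other windows grey, and the 690 members at 45% to under 50% form the lower shoulder of a single broad peak.

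The members were somewhat poor in CG. They held a median of 12.34 called CG sites per kb (95% interval of the median 12.16 to 12.58), against 13.96 per kb (13.86 to 14.04) in the other windows. The middle 50% of members ran from 10.62 to 14.92 sites per kb and that of the other windows from 11.64 to 18.66, so the classes overlapped widely and differed mainly at the CG-rich end. When all windows were ordered by CG density and cut into 10 classes, members made up 14.9% of the poorest class, which held up to 10.12 sites per kb. They made up 0.743% of the richest, which began at 24.02 per kb. Windows next above the upper limit, at 50% to under 65%, had a median of 12.48 sites per kb, close to the members, and those at 65% to under 85% had 14.60. CG density therefore followed the level across the limit and did not set the members apart from the windows above it. Among members the density did not fall with the level. The 96 members at 20% to under 30% had a median of 14.65 sites per kb, against 12.64 at 30% to under 40% and 12.12 at 40% to under 50%. Neighbouring CG sites lay a median of 35 bp apart in members and 29 bp apart in the other windows. Median depth was 4.64 calls per called site in members and 4.79 in the other windows, and the density counts only sites with a call. More than 2 times the median depth of all windows was seen in 9 members, or 0.621%, against 21 other windows, or 0.131%.

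Inside the members, methylation was intermediate over most of the length. Adjoining windows of 2 kb with at least 50 calls were used, of which the members held 28887. Of these, 42.3% (95% Wilson interval 41.7% to 42.9%) lay at 40% to under 60%, against 15.5% (15.4% to 15.7%) of the 345542 inner windows of the other class. A further 26.05% lay at 20% to under 40%, against 2.49%. Yet 10.2% were nearly unmethylated, at under 20%, against 1.63%. At the upper end, 16.3% of the inner windows of members lay at 60% to under 80%, and 5.15% at 80% or more, against 43.0% and 37.3% elsewhere. The other windows at 50% to under 65% came close to members in the middle range, with 39.9% of their inner windows at 40% to under 60%. They had 6.43% at 20% to under 40% and 2.47% under 20%. Over all members together, the inner levels thus form a broad middle and a narrow second peak next to 0. Within a window the inner levels had a median SD of 13.3 points in members and 10.8 points in the other windows. Counting error alone would give 4.58 and 3.74 points if all calls were independent. Calls on 1 read were not, as described below, so these 2 values are too small.

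**Figure D2:**
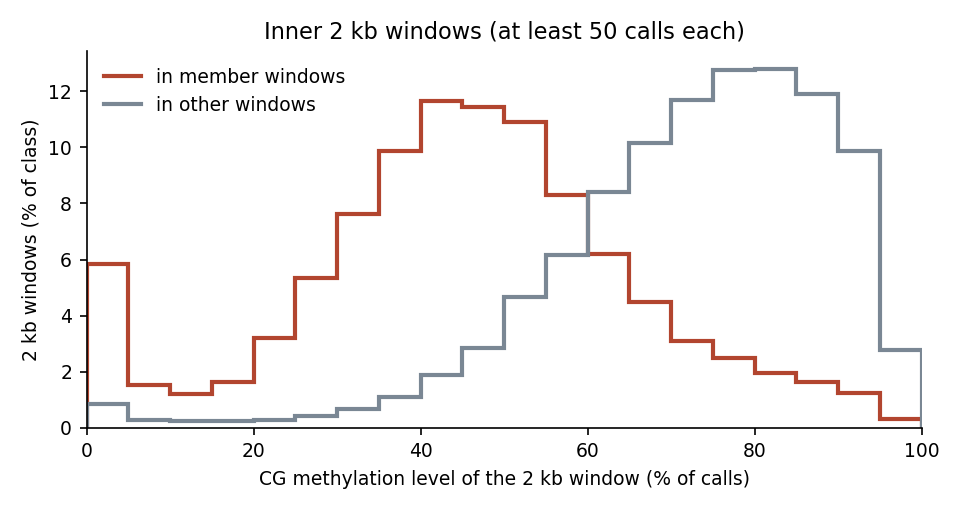
Percent of inner 2 kb windows in each class (vertical axis) by their CG methylation level in percent of calls (horizontal axis, bins of 5 points), for member windows (red) and other windows (grey). Inner windows of members peak at 40% to 45% with a second peak at 0% to 5%, and those of the other windows peak at 75% to 85%.

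The low class is CG-rich. Most of its stretches are short as counted here, but most of its inner windows lie in longer ones. Inner windows of members under 20% had a median of 20.5 called CG sites per kb, while those at 20% to under 40% had 11.5 and those at 40% to under 60% had 13.5. In the other windows, inner windows under 20% were likewise dense, at 23.0 per kb. Within members, 1349 separate stretches of adjoining inner windows under 20% were found. Of these, 57.0% were 1 inner window long and 161 reached 10 kb or more, the longest 26 kb. Such a stretch of 4 kb or more lay in 487 members, or 33.6%, against 4.31% of the other windows.

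How far such stretches made the level of a member was read from the 1425 members with at least 10 inner windows. When inner windows under 20% were left out, 932 of them, or 65.4%, stayed under 50%. The 932 include the 572 members with no inner window under 20%, whose level this step could not change. Among the members that held such inner windows, fewer stayed under 50% than reached it. The other 493, or 34.6%, reached 50% or more, so for these the name of a partially methylated domain under 50% does not hold by this measure. It is a pooled level of the remaining DNA, which may be only just over 50% and so still intermediate. No inner window under 20% occurred in 572 members, or 40.1%, against 79.2% of the other windows and 70.9% of those at 50% to under 65%. In 990 members, or 69.5%, at least 50% of the inner windows lay at 30% to under 60%. That held for 11.3% of the other windows and 45.1% of those at 50% to under 65%. The 5 members with the lowest levels all held inner windows under 20%. NW_006890082.1:2250001-2300000 was at 20.1% (18.0% in the female and 21.8% in the male), and leaving out its 5 inner windows under 20% of 15 gave 36.6%. NW_006890067.1:5050001-5100000 was at 20.3% (20.7% in the female and 20.1% in the male), with 14 of 22 inner windows under 20% and 5 at 80% or more. NW_006890289.1:550001-568474 was at 20.6% and had 6 of 9 inner windows under 20%. In 4 of the 5 members, most inner windows were under 20%. NW_006890103.1:3300001-3350000, at 20.9%, had 12 of 23 inner windows under 20% and NW_006890166.1:2450001-2483883, at 21.02%, had 7 of 12. Their levels without these inner windows were 51.8% and 59.6%. Of the 5, 3 stayed under 50% in this way, at 36.6%, 47.8% and 41.1%.

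The shares of the 2 kinds of member shifted with how far they extended, without a clean separation. Of the 1449 members, 850 had a member as a direct neighbour, or 58.7% (95% Wilson interval 56.1% to 61.2%), against 1524 of the 15996 other windows, or 9.53%. The members formed 860 runs of adjoining windows, of which 599 were single windows, 137 held 2 windows, and 42 held 5 or more. These 42 runs held 298 members, or 20.6%. In runs of 5 or more windows, intermediate methylation was nearly continuous. Of their 5996 inner windows, 40.9% fell in the range of 20% to under 40% and 46.3% in that of 40% to under 60%, while 5.09% lay under 20% and 0.100% at 80% or more. Single members had 15.7% of 11766 inner windows under 20% and 10.5% at 80% or more. The median SD of inner levels within a window was 11.4 points in the long runs, 12.2 points in runs of 2 to 4 and 22.8 points in single members. Both inner windows under 20% and inner windows at 80% or more occurred together in 0.680% of members of long runs, in 10.4% of those in runs of 2 to 4, and in 45.02% of single members. Without inner windows under 20%, 95.9% of the members of long runs stayed under 50%, against 80.3% in runs of 2 to 4 and 35.9% of single members. These shares include members without any such inner window, whose level could not change. Such members made up 55.1%, 49.7% and 23.5% in the same order. A stretch under 20% of 4 kb or more lay in 12.8% of members of long runs and in 55.1% of single members. Where inner windows under 20% did occur in long runs they were CG-poor, with a median of 10.5 called CG sites per kb, against 22.5 per kb in single members. The long runs were CG-poor as a whole, with a median of 11.60 sites per kb per window against 13.12 in single members. The lengths of runs follow from the same levels that chose the members, so these differences are a description.

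The longest run was NW_006890143.1:2600001-3470929, with 18 windows over 871 kb up to the last called position of its scaffold. Its level was 42.1%, with 39.7% in the female and 44.0% in the male, and its windows lay between 31.3% and 48.2%. Of its 317 inner windows, 18 lay under 20%, 26 at 60% or more and 0 at 80% or more. It held 10.7 called CG sites per kb, fewer than the median member. Its edge was gradual, with 72.5% in the window centred 325 kb before the run, 57.03% at 125 kb and 52.3% in the window next to it. The next run, NW_006890254.1:250001-881068, had 13 windows at 38.7% (31.5% in the female and 44.3% in the male) and also ended with its scaffold. NW_006890096.1:2600001-3200000 had 12 windows at 40.8% (37.8% in the female and 43.1% in the male), between neighbours at 66.2% and 69.8%. Those edges are steep beside the ones of NW_006890104.1:200001-800000, which had 12 windows at 45.5% (42.8% in the female and 47.6% in the male) between neighbours at 50.0% and 54.4%. NW_006890062.1:4550001-5100000 had 11 windows at 41.04% (38.0% in the female and 43.5% in the male) between neighbours at 51.1% and 55.5%. All 5 runs held 10.7 to 12.1 called CG sites per kb, 0 inner windows at 80% or more, and inner levels with an SD of 11.5 to 12.9 points.

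**Figure D3:**
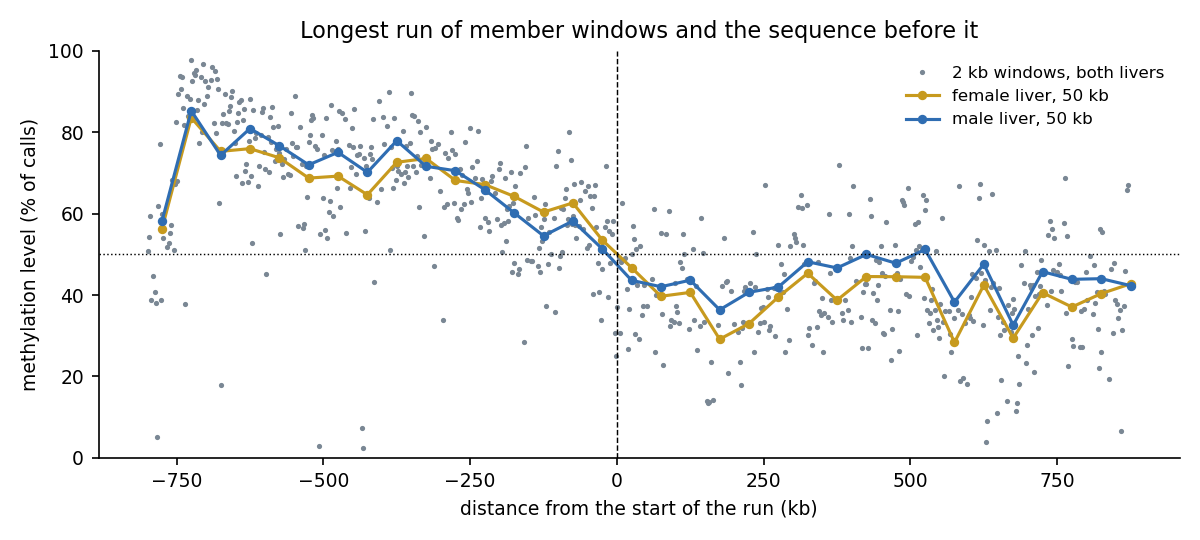
CG methylation level in percent of calls (vertical axis) along the longest run of members and the sequence before it, by distance from the start of the run in kb (horizontal axis). Grey points are 2 kb windows of both livers, and lines join 50 kb windows of the female (gold) and male (blue) liver. After the dashed line at 0 kb nearly all 50 kb values lie under the dotted line at 50%, with 39.7% in the female and 44.0% in the male over the run.

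Runs lay in surroundings of reduced methylation. Of the 1659 tested windows directly beside a run, which by construction are not members, the median level was 59.8%, and 468, or 28.2%, lay at 50% to under 55%. Under 20% there were 48, or 2.89%, so few runs bordered a window of a lower class. Such windows were rarer still over all other windows, at 80 of 15996. Since 1524 other windows had a member beside them, some of the 1659 count for 2 runs. At 10 windows, or 500 kb, from a run the median was 67.9%. Beside runs of 5 or more the median was 55.6%, and at 500 kb it was still 60.8%, while all other windows of the genome had a median of 72.9%. Windows from the second one outward may themselves be members of another run. The 72.9% leaves all members out, so it is not a like benchmark for them and lies too high. Members were unevenly spread over scaffolds. They occurred on 189 scaffolds and not on 136, many of which were short. Among the 190 scaffolds of 20 or more windows, 152 held a member. The 10 scaffolds with the most members held 25.2% of them and 12.6% of all windows. They were picked by that number, which by itself raises their share of members above their share of windows. NW_006890062.1 had 47 members among 253 windows, NW_006890085.1 had 46 among 137, and NW_006890096.1 had 41 among 105, which is 39.0% and the highest share among scaffolds of 20 or more windows. On the largest scaffold, NW_006890054.1, 26 of 370 windows were members, in 20 runs at 21.8% to 49.8%. Of these runs 18 were single windows, and 13 of the 18 held inner windows both under 20% and at 80% or more. Its only run of 5 or more, NW_006890054.1:3950001-4250000, had 6 windows at 42.2% (40.4% in the female and 43.8% in the male), with 1 of 138 inner windows under 20%, and it bordered a window at 7.19% on one side and 57.0% on the other. Ends of scaffolds did not stand out, with 7.85% members among first and last windows and 8.32% among the rest.

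Single CG sites in members covered the whole range of levels. Among sites with at least 5 calls, 29.2% of those in members were under 20%, 15.8% at 20% to under 40%, 18.4% at 40% to under 60%, 17.1% at 60% to under 80% and 19.5% at 80% or more. In the other windows 7.26% were under 20% and 57.7% at 80% or more. In runs of 5 or more 23.1% of sites were under 20%, 21.2% at 20% to under 40%, 23.3% at 40% to under 60%, 18.6% at 60% to under 80% and 13.8% at 80% or more. Single members leaned to the ends, with 35.1% under 20% and 24.2% at 80% or more. Few calls stand behind each site, which by itself spreads site levels outward.

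The level of a site varied with the number of CG sites around it. Sites were classed by the number of other called CG sites within 35 bp. A site had 0 such neighbours in 28.3% of cases in members and in 23.3% in the other windows. In members the level was 38.5% with 0 neighbours, 44.5% with 1, 48.0% with 2, 48.5% with 3 to 4 and 24.5% with 5 or more. In the other windows it was 66.7%, 72.2%, 75.8%, 78.5% and 67.8% in the same order. The level thus rose with the number of neighbours up to 4 and dropped at the densest sites in both classes as a whole. The 96 members at 20% to under 30% went the other way, with 34.5% at 0 neighbours, 32.5% at 1, 29.1% at 2, 23.6% at 3 to 4 and 7.89% at 5 or more. To narrow the local level, sites were then taken only from inner 2 kb windows at 40% to under 60%. The classes were still not matched, since the other windows lay higher within this range. Of reads with at least 3 CG calls, members had 128942 at 40% to under 50% and 121864 at 50% to under 60%. In the other windows these were 282307 and 743716. In these inner windows the level in members was 39.0% with 0 neighbours, 47.2% with 1, 53.0% with 2, 58.3% with 3 to 4 and 60.3% with 5 or more, a span of more than 20 points. In other windows it was 46.3%, 52.1%, 55.9% and 59.0%, and then 50.5% with 5 or more. In runs of 5 or more windows the span was wider still, with 37.0% at 0 neighbours and 63.2% at 5 or more. Single members instead dropped at the densest sites, from 58.4% with 3 to 4 neighbours to 56.2% with 5 or more. Over all sites of members, the order of levels by number of neighbours was the same in the female and the male liver.

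**Figure D4:**
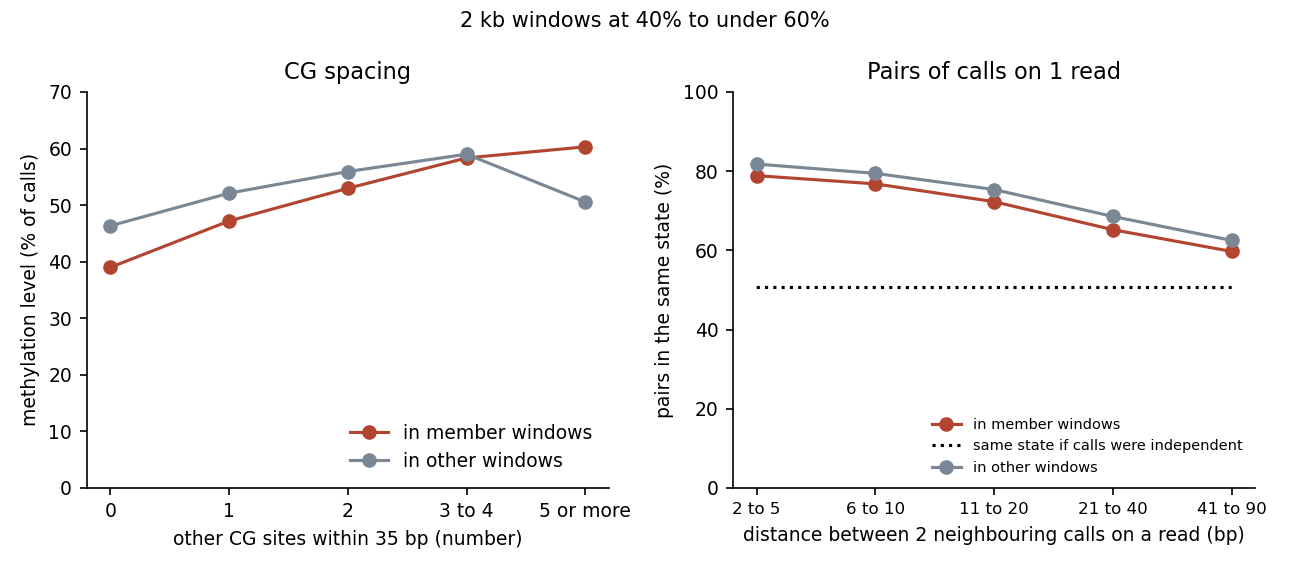
Left, CG methylation level in percent of calls (vertical axis) by number of other called CG sites within 35 bp (horizontal axis). Right, percent of pairs of neighbouring calls on 1 read in the same state (vertical axis) by their distance in bp (horizontal axis), with the value for independent calls dotted. Both use inner 2 kb windows at 40% to under 60% in member windows (red) and other windows (grey), which lay higher within this range. In members the level is 39.0% at 0 neighbours and 60.3% at 5 or more, and same-state pairs are 78.9% at 2 to 5 bp and 59.7% at 41 to 90 bp.

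Single reads in members were often mixed. Reads with at least 3 CG calls were counted, 605594 in members and 9336823 in the other windows. In members 22.0% of reads were fully methylated, 34.97% fully unmethylated and 43.1% mixed, that is, with both kinds of call. In the other windows 52.8% were fully methylated, 10.1% fully unmethylated and 37.0% mixed. In those at 50% to under 65% alone, 46.5% were mixed, more than in members, so the raw share did not set members apart. If the calls on a read were independent at the level of their 2 kb window, 64.4% of reads in members and 57.2% elsewhere would be mixed, so calls on 1 read were more alike than that in both classes. Within the same narrow range of local level, mixed reads were more frequent in members. In inner windows at 40% to under 50% they made up 55.7% in members against 48.0% in the other windows, and at 20% to under 30% they made up 38.7% against 24.9%. In runs of 5 or more, 52.2% of all reads were mixed, against 35.2% in single members. At an inner level of 40% to under 50% the same shares were 56.4% in long runs and 54.0% in single members. The gap was wider at 20% to under 30%, with 43.4% in long runs and 32.1% in single members. Over all inner windows, reads with at least 5 calls were mixed in 43.5% of cases in members and 42.3% in other windows. That gap was smaller than the 43.1% against 37.0% with at least 3 calls. Independent calls would give 65.6% and 67.2% for these longer reads. They were not split by local level.

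Calls on 1 read lost likeness with distance. For neighbouring calls in inner windows at 40% to under 60%, 78.9% of those 2 to 5 bp apart were in the same state in members, against 81.8% in the other windows. At 11 to 20 bp the shares were 72.3% and 75.4%, and at 41 to 90 bp they were 59.7% and 62.5%. Independent calls would give 50.6% in members and 50.7% in the other windows at 41 to 90 bp. Likeness was thus lower in members at every distance, and in both classes it stayed above the value for independent calls across the length of a read.

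Between the animals, most members were less methylated in the female liver. The members averaged 40.4% ± 6.66 in the female and 44.4% ± 7.02 in the male (SD over 1449 windows). The female minus male difference had a median of -3.84 points (95% interval of the median -4.13 to -3.61). The female level was the lower in 1195 of 1449 members, or 82.5%. It was the lower in 79.2% of the other windows as well, where the means were 70.4% in the female and 73.1% in the male and the median difference was -2.32 points (-2.38 to -2.26). By 5 points or more, 568 members, or 39.2%, were lower in the female, against 23.2% of all 17445 windows, and 28 members, or 1.93%, were higher, against 1.39% of all windows. The difference was largest around the limit of 50% and smaller at both lower and higher levels. Its median was -3.02 points in members at 20% to under 30%, -3.53 points at 30% to under 40% and -4.08 points at 40% to under 50%, and in the 80 other windows under 20% it was -1.02 points. Windows at 50% to under 65%, just above the members, had a median of -3.55 points, with 37.7% lower by 5 points or more, while windows at 85% or more had a median of -1.41 points. The difference varied among members with an SD of 4.44 points. Counting error would give 1.87 points if all calls were independent, which is too small, since calls on 1 read were alike. Lanes 1 and 2 of the same library, each with only part of the calls, differed over members with an SD of 4.12 points in the female. In the male this SD was 3.88 points. How much of the variation among members is noise was not tested. Within lane 1 the members' median was -3.94 points and within lane 2 it was -3.84 points, while 2 lanes of the same library differed by a median of -0.0434 points in the female and 0.126 points in the male. Female and male calls stood in a similar ratio in members and other windows, with median log2 ratios of -0.31 and -0.33. Sex, animal and library cannot be told apart here.

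**Figure D5:**
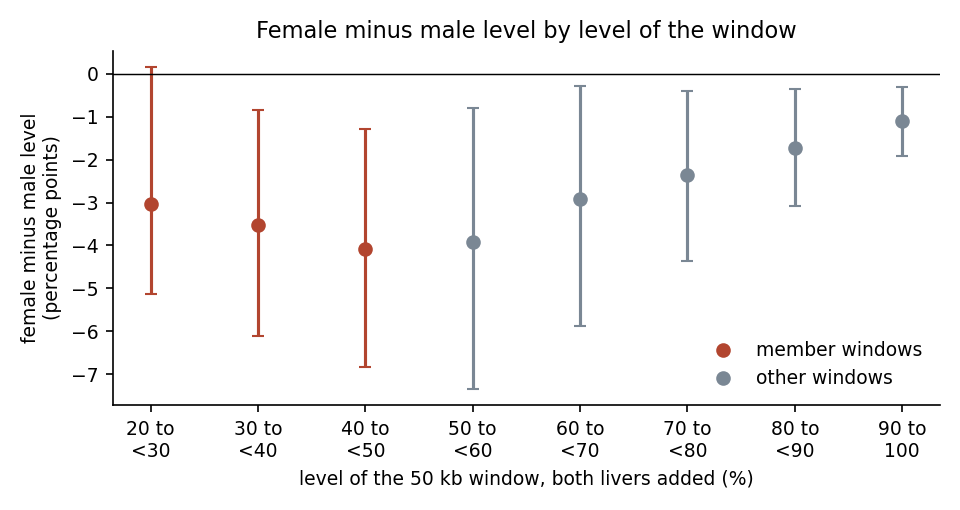
Female minus male CG methylation level in percentage points (vertical axis) of 50 kb windows by their level in percent in both livers added (horizontal axis). Points are medians and bars run from the lower to the upper quartile over windows, members in red and other windows in grey, and the medians are -4.08 points at 40% to under 50% and -1.09 points at 90% or more.

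The difference was larger in long runs. Their members had a median of -5.21 points (-5.92 to -4.71), with 52.3% lower by 5 points or more and 0 higher by 5 points or more. Single members had a median of -3.05 points (-3.35 to -2.54), and 3.01% of them were higher by 5 points or more. Taken as whole runs, 40 of the 42 runs of 5 or more, or 95.2%, were lower in the female, and their differences lay between -12.8 and 1.01 points. The same held for 87.7% of the runs of 2 to 4, 78.3% of single members and 79.2% of the other windows. A long run pools the calls of more windows, so these shares are not alike in depth. Long runs and single members were also not matched for their inner levels. The female levels of these 42 runs ranged from 22.4% to 46.3% with a median of 39.6%, and the male levels from 31.5% to 51.8% with a median of 44.6%. These ranges overlap. The difference was also read in a part of the inner windows of members. This part held 6217 of the 12222 at 40% to under 60%, 2747 of the 7525 at 20% to under 40% and 2078 of the 2953 under 20%. The classes were thus kept in unequal shares, and their medians were not matched for CG density or depth. The median difference was -4.35 points in inner windows at 40% to under 60% and -4.17 points in those at 20% to under 40%. It was -3.49 points at 60% to under 80% and -1.54 points at 80% or more. In those under 20%, which were nearly unmethylated in both livers and so left little room for a difference, it was -0.24 points. In the other windows inner windows at 40% to under 60% had a median difference of -3.46 points.

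A few members differed far more. The farthest was NW_006890079.1:100001-150000, with 28.0% in the female and 53.1% in the male, a difference of -25.1 points on 2457 and 2162 calls. In the opposite direction, NW_006890146.1:1150001-1200000 had 35.2% in the female and 23.0% in the male, a difference of 12.2 points on 696 and 968 calls. Coverage of NW_006890079.1:100001-150000 was unusual, with more calls from the female than from the male. On a log2 scale, where negative values mean fewer female calls, the 95th percentile of members was -0.14. Its 2457 female calls also lay above the members' 95th percentile of 2385, although its 11.92 called CG sites per kb were under their median. Whether this coverage bears on its difference between the livers was not tested. The scaffold NW_006890254.1, which holds the second longest run and was singled out after its values were seen, differed along its whole length. Of its 18 windows 17 were members, and the remaining one lay just outside the upper limit at 50.02%, with 39.0% in the female and 58.6% in the male. As a whole the scaffold stood at 33.4% in the female liver and 47.3% in the male liver, and every window was lower in the female, with differences of -20.1 to -7.22 points. Its log2 ratio of female to male calls was -0.35, against a median of -0.33 in the other windows.

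The choice of members was also made in each liver alone and read in the other, so that the level was measured in calls that had no part in the choice. Of 17362 windows with 500 calls in both livers, 1907 were chosen in the female. In the male their median was 48.7%, and 1105, or 57.9%, lay in the range of 20% to under 50%, against 0.537% of the windows not chosen. In the male 1188 windows were chosen, with a median of 40.8% in the female. Of these, 93.0% lay in the range in the female, against 4.96% of the windows not chosen. The windows chosen in 1 animal were thus low in the other as well, and the male-chosen windows were nearly contained in the female-chosen ones, of which they shared 1105. In the liver that chose them the medians were 43.9% for female-chosen and 44.5% for male-chosen windows. The female was the lower in most windows, so the same limit of 50% took in more windows there. Whether the unequal shares hold more than this offset was not tested.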

How the data were processed

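CG calls of 1 female and 1 male deep-sequenced liver were analysed. The authors trimmed reads with Trim Galore 0.4.0, aligned them with Bismark 0.14.3 in its PBAT mode to the longer scaffolds of assembly 6.1.3, removed duplicates and extracted calls. Each deposited line is the call of 1 cytosine in 1 read (methylated or not), without strand. No unit other than these calls was used, and the low-coverage mapping reports were not. No genome or annotation of this assembly was used, so sequences and genes are not given.

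Calls were summed in 50 kb and 2 kb windows (minimums of 500 and 50 calls) with Python 3.11.15, NumPy 2.4.6, pandas 2.3.3 and Matplotlib 3.10.9. Called positions 1 bp apart were joined into CG sites. Levels of 1 liver needed 200 calls. The summing, joining, runs and read classes were tested on simulated data. Shares carry 95% Wilson intervals, medians order-statistic intervals. With 1 library per sex, no test was run. The rule, members, classes and alternatives were chosen with earlier results of these data known. Regions named are the 5 longest runs, the 5 lowest members, the members nearest the limits and the windows just outside, the runs on the largest scaffold and the 3 scaffolds with most members. The windows farthest apart between livers were chosen after their values were seen. Division into runs of 5 or more, 2 to 4 and 1 was also made after the data were seen.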

Additional observations from a re-analysis of the deposited data

How the results depend on the processing

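No paired analysis was possible because each sex has 1 deep library and no test was run. Of 67 alternative values, 30 stayed within the 95% interval of the reported value (for the number of members, within 1.5 times), 37 moved and 0 changed sign. Windows of 25 kb gave 3161 members and windows of 100 kb 647, or 9.12% and 7.35% of windows. An upper limit of 45% gave 759 members and 55% gave 2393, with 42.7% and 70.5% of them next to a member. That share was 55.02% with 100 kb windows and 66.2% with the mean over CG sites. Reading the first call of each read gave 2013 members, which held 86.0% of the 1449. Of the 2 alternatives to the number of members chosen after seeing the data, leaving out 2 kb windows under 20% gave 995 members.

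Inner windows at 40% to under 60% made up 40.5% with at least 20 calls, 44.1% with at least 100, 39.9% at 1 kb and 47.7% at 5 kb. Those under 20% made up 13.5% with at least 100 calls, 14.1% at 1 kb and 8.27% at 5 kb, and those at 60% or more 24.5% at 1 kb and 18.2% at 5 kb. Mixed reads in members were 45.3% with at least 4 calls, 43.5% with at least 5, 42.9% in the female alone, 43.2% in the male alone and 56.1% in 2 kb windows at 40% to under 60% only. Members minus other windows was then 4.92, 1.16, 4.67, 7.08 and 5.83 points, against 6.02 points as reported.

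The female minus male median in members was -3.39 points with the mean over CG sites and -4.18 with the first call of each read. It was -5.04 with members chosen in the female alone and -2.94 with members chosen in the male alone. For other windows these 4 settings gave -2.01, -2.70, -2.20 and -2.39 points, 1000 calls in each liver gave -2.22 and lane 1 alone, added after seeing the data, gave -2.40. The difference in CG density stayed within its interval in all 7 alternatives, 1 of them (sparse 2 kb stretches left out) added after seeing the data, at -1.77 to -1.48 sites per kb. Depth limits single sites, since 413461 of the 939992 called sites in members had at least 5 calls.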
